A study of Homo sapiens with 24 samples.

Results

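Different ways of depleting the circular RNA ciRS-7 were set side by side, namely a vector-borne short hairpin and a chemically synthesised guide. The comparison used 12 of the 24 libraries in the series. They were the 6 agoshRNA libraries and the 6 syn-gRNA libraries, chosen by the setup named in the headings of the raw count columns, and no measured value entered the choice. Each setup had a knockdown arm (KD), aimed at ciRS-7 (also called CDR1as), and its own non-targeting control arm (NTC), with 3 libraries per arm. In the agoshRNA setup, cells received a vector that expresses the hairpin by lipid transfection, and RNA was taken after 48 h. The syn-gRNA setup carried the synthetic guide, whose delivery the labels do not describe. In the gRNA and pre-gRNA setups, which supply context only, a guide plasmid was given together with pcDNA3_CasRx-GFP, the plasmid of the nuclease. Whether the syn-gRNA cells received that plasmid is not given in the sources used here. All cells are labelled SH-SY5Y, a human neuroblastoma line. Every difference below is agoshRNA minus syn-gRNA. Setup and batch were the same split of the libraries and cannot be told apart, so a difference belongs to the setups as they were prepared and sequenced. Nothing says whether the 3 libraries of an arm came from separate cultures, so p-values measure only the spread between these libraries.

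An agoshRNA is a short hairpin that bypasses Dicer and is cut by Argonaute 2, whereas a CasRx guide directs an RNA-cutting bacterial nuclease. Cells answer misfolded protein through the transcription factor HSF1, which switches on the HSP70 chaperones and their J-domain partners, and answer several other insults through the translation-linked factor ATF4. Small nucleolar RNAs (snoRNAs) guide chemical changes of ribosomal RNA. Most human snoRNAs are cut from introns of host genes, and neither they nor replication-dependent histone messages normally end in a poly(A) tail.

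Poly(A)-selected, non-stranded, paired reads of 100 nt had been counted. Total counts ran from 11678756 to 15206817 in the agoshRNA libraries and from 10994974 to 15204685 in the syn-gRNA libraries. Protein-coding genes took 90.4% to 92.1% of the agoshRNA counts and 89.2% to 90.5% of the syn-gRNA counts. Several defining markers of the cell label were absent in both setups, while others were present. TH, the first enzyme of catecholamine synthesis, and the neuropeptide gene NPY had 0 counts in all 12 libraries, and PHOX2A, STMN2 and DBH had at most 3 counts in any of them. GATA2 (33.9 CPM on average in agoshRNA and 37.5 in syn-gRNA), TBX2, HAND1 and CHRNA3 were expressed. Of 16 noradrenergic neuroblastoma markers, 4 averaged above 10 CPM, the count of a gene scaled to the library total in either setup, and the 16 together summed to 70.3 to 155 CPM in agoshRNA libraries and 96.1 to 111 CPM in syn-gRNA libraries. Of 12 kidney-lineage markers, 7 averaged above 10 CPM in the agoshRNA libraries and 9 in the syn-gRNA libraries. That list summed to 236 to 482 CPM and 396 to 468 CPM. Of 12 mesenchymal neuroblastoma markers, 8 and 7 averaged above 10 CPM, and the list summed to 1080 to 1340 CPM and 991 to 1170 CPM. By the test described below, 1 was higher and 1 lower of 7 tested noradrenergic markers, and likewise of 11 tested kidney-lineage markers. Of 11 tested mesenchymal markers 1 was higher and none lower. Over all tested genes 6.53% were higher and 4.78% lower.

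The agoshRNA libraries differed among themselves more than the syn-gRNA libraries did. Correlations of log2 CPM between libraries ran from 0.83 to 0.99 within agoshRNA and from 0.979 to 0.992 within syn-gRNA. The first principal component held 62.3% of the variance and set the 2 agoshRNA libraries with column letter A, at −144 (KD) and −114 (NTC), apart from all others. In those 2 libraries, genes of low GC content were low. In the group of protein-coding genes with the lowest GC content, 1 of 5, the median was 1.53 (KD A) and 1.09 (NTC A) log2 units under the mean of the 12 libraries. The agoshRNA B libraries went the other way, at 0.81 (KD B) and 0.54 (NTC B) above that mean, while the syn-gRNA libraries lay from 0.06 to 0.4 above it. The KD and NTC libraries that share a letter within a setup moved together, most clearly in agoshRNA. Their deviations from the group means correlated at 0.61 to 0.93 in agoshRNA and at 0.26 to 0.63 in syn-gRNA. In syn-gRNA the unlike pair of KD B and NTC C reached 0.28, so letters B and C were not set apart there.

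With arm as a covariate, 2175 of 19231 tested genes (11.3%) differed between setups at an adjusted p under 0.05 by edgeR's quasi-likelihood test with Benjamini-Hochberg adjustment. Of these, 1256 (6.53%) were higher and 919 (4.78%) lower in agoshRNA. A gene was taken to hold in both arms when it was called in that fit and its 3 agoshRNA libraries lay beyond its 3 syn-gRNA libraries, the same way, in the KD arm and again in the NTC arm. By that rule 1488 genes (7.74%) held, 789 (4.1%) higher and 699 (3.63%) lower. With a mean of 50 counts or more, 1019 (5.3%) held, 682 (3.55%) higher and 337 (1.75%) lower. With the letter as a replicate block (limma-voom, correlation within a block of 0.801), 57 genes (0.296%) were called, 12 higher (0.0624%) and 45 lower (0.234%), and all 57 also held in both arms. Of the 1488 held genes, 1268 had an unadjusted p under 0.05 in the blocked fit, as had 2453 of all 19231 tested genes (12.8%). The held genes were chosen on these same counts, so the 1268 are no separate support. Summing the KD and NTC libraries of a letter, 3 against 3, left 1 call, RNU6-1 (2194 genes at an unadjusted p under 0.05). The median over all tested genes was 0.05. Each arm alone gave few calls by edgeR, 2 in the KD arm (0.0104%, with 3010 genes at an unadjusted p under 0.05) and 1 in the NTC arm (0.0052%, with 2216). RNU6-1 was called in both, and the histone gene HIST2H2BE in the KD arm.

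The number of calls moved with the libraries used. It was 2344 (1136 higher and 1208 lower) without the 2 agoshRNA A libraries, 8980 without the 2 agoshRNA B libraries, and 171 without the 2 syn-gRNA C libraries. Those held in both arms numbered 2042, 7195 and 171 in the same order. With the block and without the agoshRNA A libraries, 218 genes were called, 76 higher and 142 lower. Removing the trend with GC content from the blocked fit gave 710 calls, 264 higher and 446 lower. The split between directions also moved with scaling, to 822 higher and 1016 lower under upper-quartile factors and to 927 higher and 1061 lower by limma-voom without the block. In the text below, "higher", "lower" and "called" refer to the edgeR fit unless the block is named, and "blocked p" is the adjusted p of the blocked limma-voom fit. The edgeR fit takes libraries of one letter as independent, although they moved together, so its p-values can be too small.

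By annotated gene type, all 118 held snoRNA and small Cajal body RNA genes, of 167 tested, were lower in agoshRNA, as were all 19 held histone genes. Over all tested genes, 4.1% held as higher and 3.63% as lower. A snoRNA or histone gene with reads in the syn-gRNA libraries alone could pass the count filter, so these counts describe only the tested genes. Of the other held protein-coding genes, 696 were higher and 199 lower, and of genes of other types 93 were higher and 363 lower. The setup difference of protein-coding genes varied with GC content. Across 5 groups of 2300 to 2340 genes, from low to high GC content, medians were −0.22, −0.11, 0.21, 0.37 and 0.3. In that order 8, 81, 346, 348 and 160 genes were called higher, and 32, 56, 45, 26 and 14 lower. How much of the excess of higher protein-coding genes goes with GC content was not tested. Under the block, 28 snoRNAs, 4 histone genes and 3 other protein-coding genes were lower, 11 protein-coding genes were higher, and of other types 10 were lower and 1 higher.

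A part of the heat-shock genes, with inducible HSP70 genes among them, stood higher in the agoshRNA libraries. Of 26 listed HSF1-regulated genes 25 were tested, and 9 were called, all 9 higher and held in both arms, with 5 higher under the block. The median over the 25 was 0.53, beside 0.11 over 13791 tested protein-coding genes, of which 7.8% were called higher. Without the agoshRNA A libraries 13 were called, with a median of 0.58, and without the syn-gRNA A libraries 7, with a median of 0.36. Summed over the whole list, the setups overlapped, at 12300 to 16600 CPM of the library total in agoshRNA and 10800 to 13000 in syn-gRNA. The sums were 9000 to 10800 in gRNA and 9010 to 11100 in pre-gRNA.

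HSPA6 (chr1:161494330-161496700, + strand, hg19) encodes a strictly inducible HSP70. Its level in CPM after TMM scaling, the scale of all library values below unless another is named, was 33.4, 33.5 and 38.4 in agoshRNA KD and 39.3, 35.9 and 38.2 in agoshRNA NTC. It was 1.3, 7.96 and 10.1 in syn-gRNA KD and 1.7, 8.46 and 8.37 in syn-gRNA NTC. All 6 agoshRNA libraries lay above all 6 syn-gRNA libraries, and the 2 syn-gRNA A libraries were lowest. The difference was 2.53 ± 0.44 (log2, SE; adjusted p by edgeR 0.00484, blocked p 0.0205). Reads could be shared with near-identical HSP70 copies, so values of HSPA6, HSPA1A and HSPA1B are uncertain as to the copy.

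HSPA1A and HSPA1B, the inducible HSP70 pair on chromosome 6, moved alike. HSPA1B ran from 700 to 1700 CPM in agoshRNA (median 1510) and from 259 to 442 CPM in syn-gRNA (median 426). Its difference was 1.81 ± 0.25 (adjusted p by edgeR 0.00182, blocked p 0.0312). HSPA1A differed by 1.82 ± 0.25 (adjusted p by edgeR 0.0018, blocked p 0.0428). In both genes the agoshRNA B libraries were lowest of the 6, yet above every syn-gRNA library.

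DNAJB1, the J-domain partner that feeds clients to HSP70, ran from 348 to 723 CPM in agoshRNA and from 98.7 to 163 CPM in syn-gRNA. The difference was 1.82 ± 0.21 (adjusted p by edgeR 0.00143, blocked p 0.0205), with no overlap. BAG3, a co-chaperone of HSP70 in selective autophagy, averaged 147 CPM against 53.6 CPM, a difference of 1.46 ± 0.20 (blocked p 0.0466). HSPB8, a small heat-shock protein that works with BAG3, was low in both setups at 2.04 to 4.8 CPM and 0.308 to 0.804 CPM. It differed by 2.36 ± 0.32 (adjusted p by edgeR 0.0018) and was not called under the block (blocked p 0.139).

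The remaining called members were smaller. STIP1, which links HSP70 to HSP90, differed by 0.98 (blocked p 0.06), SERPINH1, a collagen chaperone, by 0.95 (blocked p 0.226), and AHSA1, an activator of HSP90, by 0.68 (blocked p 0.254). Other central members were not called. HSP90AA1 differed by 0.27 ± 0.39, HSPD1 by −0.23 ± 0.30, DNAJA1 by 0.06 ± 0.28 and HSPA8, the constitutive HSP70, by −0.41 ± 0.19 (adjusted p by edgeR 0.174). HSPH1 differed by 0.85 ± 0.41 (adjusted p by edgeR 0.194).

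The promoters of 3 higher members are shown, chosen because they carry the letters that HSF1 reads; DNAJB1, which differed as much as HSPA1A, has none in this window. HSF1 binds inverted repeats of GAA, searched here as GAANNTTC and TTCNNGAA, each of which reads the same on both strands, and matches of one can overlap those of the other. The sequences are RefSeq promoters (GRCh38.p14), from 250 bases before to 50 after the gene start, with matches in capitals, which merge where they overlap.
HSPA6: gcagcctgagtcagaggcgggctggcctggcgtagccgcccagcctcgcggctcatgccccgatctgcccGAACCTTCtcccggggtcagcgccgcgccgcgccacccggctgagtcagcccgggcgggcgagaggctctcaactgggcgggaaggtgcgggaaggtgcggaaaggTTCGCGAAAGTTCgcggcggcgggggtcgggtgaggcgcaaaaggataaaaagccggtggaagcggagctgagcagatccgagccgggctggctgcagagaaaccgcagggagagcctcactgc
HSPB8: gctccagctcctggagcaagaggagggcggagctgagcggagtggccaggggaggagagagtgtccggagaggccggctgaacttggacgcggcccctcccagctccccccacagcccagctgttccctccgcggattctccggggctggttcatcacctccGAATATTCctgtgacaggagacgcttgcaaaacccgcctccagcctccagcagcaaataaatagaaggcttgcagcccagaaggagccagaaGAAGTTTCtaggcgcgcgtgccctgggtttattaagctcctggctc
HSPA1A: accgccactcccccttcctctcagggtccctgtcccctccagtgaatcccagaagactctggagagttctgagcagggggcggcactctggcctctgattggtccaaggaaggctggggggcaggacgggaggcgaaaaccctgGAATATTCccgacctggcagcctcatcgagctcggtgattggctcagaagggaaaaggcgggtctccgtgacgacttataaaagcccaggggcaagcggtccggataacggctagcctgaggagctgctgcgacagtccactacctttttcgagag
They lie at chr1:161524290-161524589, chr12:119178681-119178980 and chr6:31815293-31815592, all on the + strand. A match stood in 10 of the 23 list members with a promoter sequence (43.5%), in 4737 of all 35116 promoters (13.5%) and in 1013 of 10356 promoters of tested protein-coding genes (9.78%). BAG3, STIP1 and AHSA1 were also higher and have no match in this window, while DNAJA1, CHORDC1 and HSPA8 have matches and were not called. Over all held protein-coding genes the share with a match was 9.29% of 506 promoters of higher genes and 11.3% of 142 promoters of lower genes. A match is only a description of these letters.

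The gRNA and pre-gRNA setups give a scale for these levels, here in CPM of the library total. HSPA6 ran from 33 to 41.6 CPM in agoshRNA, 1.36 to 10.3 in syn-gRNA, 0.0723 to 0.823 in gRNA and 0 to 0.751 in pre-gRNA. DNAJB1 ran from 343 to 658, 103 to 159, 52.7 to 129 and 57.1 to 128 CPM in the same order. HSPA1B overlapped more, at 689 to 1780, 270 to 442, 164 to 1010 and 190 to 839 CPM. No test of agoshRNA against the gRNA or pre-gRNA libraries was made.

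A part of the ATF4 targets was also higher. Of 21 listed and tested genes, 8 were called and all 8 were higher, 6 of them held in both arms, where 7.8% of tested protein-coding genes were higher and 4.1% of all tested genes held as higher. Their median was 0.73, but none was called under the block. CHAC1, which degrades glutathione, was highest in the agoshRNA C libraries. It stood at 57.6 (KD) and 41.9 (NTC) CPM there, at 11.1 to 13.9 CPM in the other 4 agoshRNA libraries and at 1.96 to 6.71 CPM in syn-gRNA. Its difference was 2.45 ± 0.50 (adjusted p by edgeR 0.0108, blocked p 0.158).

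ASNS, the asparagine synthetase gene, showed the same spread, at 706 and 820 CPM in the C libraries and 163 to 310 CPM in the others, against 152 to 175 CPM in syn-gRNA. It was called (1.35 ± 0.36, adjusted p by edgeR 0.031, blocked p 0.254) but did not hold in both arms, since agoshRNA KD A lay within the syn-gRNA range. Of smaller members, DDIT4 differed by 1.01 ± 0.23, ATF3 by 0.97 ± 0.21, STC2 by 0.94 ± 0.14 and NUPR1 by 1.63 ± 0.37, all called by edgeR and none under the block (blocked p 0.0878 to 0.254). TRIB3 (1.11 ± 0.37, adjusted p by edgeR 0.0649), SESN2 (0.73 ± 0.27) and DDIT3 (0.56 ± 0.22) were not called. Without the agoshRNA A libraries 14 members were called, and without the syn-gRNA A libraries 2.

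Summed over the list, the ATF4 targets did not set agoshRNA apart from the plasmid-encoded guides. The sums were 3840 to 6370 CPM in agoshRNA, 3280 to 3410 in syn-gRNA, 4280 to 4680 in gRNA and 4040 to 5420 in pre-gRNA. The syn-gRNA libraries were lowest and lay within a narrow range.

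Other stress pathways gave single genes. JUN, a component of the AP-1 factor, ran from 728 to 1290 CPM in agoshRNA and from 384 to 447 CPM in syn-gRNA. Its difference was 1.20 ± 0.17 (adjusted p by edgeR 0.00219, blocked p 0.044). In CPM of the library total JUN stood at 718 to 1330 in agoshRNA, 744 to 1230 in gRNA and 867 to 1390 in pre-gRNA, so the syn-gRNA libraries, at 383 to 478, were the low ones. Of 21 immediate early genes 3 were higher (14.3%) and 1, JUNB, lower (4.76%), with a median of 0.02. Of tested protein-coding genes 7.8% were higher and 1.94% lower, and under the block only JUN of this list was called.

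Of 18 targets of NRF2, a transcription factor active in oxidative stress, 3 were higher and none lower (median 0.34). That is 16.7%, beside 7.8% of tested protein-coding genes called higher, and none was called under the block. HMOX1, the heme oxygenase gene, was one, at 13.9 to 24.3 CPM against 6.47 to 9.03 CPM (1.22 ± 0.19, adjusted p by edgeR 0.00301, blocked p 0.108). Of 23 endoplasmic reticulum chaperones and unfolded-protein genes, 2 were higher (8.7%), near the 7.8% of tested protein-coding genes. The median was 0.18, and none was called under the block. XBP1, the transcription factor activated by IRE1, differed by 1.10 ± 0.18 (adjusted p by edgeR 0.00361, blocked p 0.0535). HSPA5, the endoplasmic reticulum HSP70, differed by −0.80 ± 0.30 and was not called (adjusted p by edgeR 0.0978).

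Of 20 further J-domain genes 3 were higher (15%) and 1 lower (5%), where 7.8% of tested protein-coding genes were higher and 1.94% lower. DNAJB5 differed by 1.68 ± 0.31 (blocked p 0.0839) and DNAJA4 by −1.01 ± 0.30 (blocked p 0.46). Of 31 proteasome subunits 1 was higher, PSMD4 (median 0.12). Of 20 p53 targets 2 were higher (10%), and neither held in both arms (median 0.20). None of the 14 tested of 29 genes of RNA sensing and interferon response was called, and their median was 0.15. No gene of these lists was called under the block.

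Other genes called higher under the block had no list of their own. GNE, the key enzyme of sialic acid synthesis, ran from 22.9 to 50.7 CPM in agoshRNA and from 6.38 to 13.9 CPM in syn-gRNA (1.91 ± 0.27, blocked p 0.044). SLC7A1, a transporter of cationic amino acids, averaged 189 CPM against 61 CPM (1.63 ± 0.23, blocked p 0.0342). RMI2, RPL7L1 and ANKRD33B differed by 1.42, 1.24 and 1.57, with blocked p of 0.0456, 0.0481 and 0.0479. SLC7A1 stood at 115 to 204 CPM of the library total in gRNA and 152 to 190 in pre-gRNA, against 107 to 271 in agoshRNA and 49.8 to 71.5 in syn-gRNA. PAQR8, CSPG4, FLNC and TMEM177 were among the 10 held protein-coding genes with the largest differences, at 1.83 to 2.13, and none passed under the block.

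Across the 26 alternative settings run for single genes, which leave out the sums over a letter, other filters and the minimum log2 difference, HSPA6, HSPA1A, HSPA1B, DNAJB1, BAG3, JUN, GNE and SLC7A1 were called in all 26. CHAC1 was called in 22 and ASNS in 11. The settings refit the same counts, and most take libraries of one letter as independent. In the sums over a letter, none of the genes called in all 26 was called (adjusted p by edgeR 0.195 to 0.217).

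RNU6-1, a gene for the U6 spliceosomal RNA, had the largest difference of the genes named here. The values are reads of poly(A)-selected libraries, and the level of U6 RNA itself was not measured. The U6 promoter is widely used in vectors that express short RNAs, and the promoter of the vector used is not given in the sources used here. RNU6-1 stood at 14, 20.5 and 28.3 CPM in agoshRNA KD and 14.4, 17.2 and 32.9 CPM in agoshRNA NTC. In syn-gRNA it stood at 0.577, 0.563 and 0.267 CPM in KD and 0.314, 0.692 and 0.461 CPM in NTC. The agoshRNA libraries held 196 to 394 reads on it and the syn-gRNA libraries 3 to 9. The difference was 5.44 ± 0.33 (adjusted p by edgeR 4.95e-06, blocked p 0.0019). It was nearly the same in KD (5.43, adjusted p by edgeR 0.00189) and NTC (5.45, adjusted p by edgeR 0.00162). The gRNA libraries held 2 to 17 reads and the pre-gRNA libraries 4 to 16.

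The gene lies at chr15:68132277-68132383 on the − strand (hg19). U6 has many near-identical copies, among which reads can be split. Of 1332 U6 genes and pseudogenes, 16 were tested, and 2 were called, both higher, where 6.53% of all tested genes were higher. The other was RNU6-395P (1.61 ± 0.38, blocked p 0.315). RNU6-8 differed by −0.09 ± 0.23 and RNU6-2 by −0.51 ± 0.41, and neither was called.

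Every snoRNA called by edgeR in the lists below was lower in the agoshRNA libraries. Box C/D snoRNAs guide methylation of ribosomal RNA. Of 389 listed, 92 passed the count filter, 71 were lower, none was higher and 67 held in both arms. Box H/ACA snoRNAs guide pseudouridylation, and with the Cajal body RNAs 82 of 452 were tested, 63 were lower, none was higher and 56 held. The medians were −1.92 and −1.86, while 4.78% of all tested genes were lower. These lists go by gene symbol, so their counts differ from those by annotated gene type. Under the block 21 and 8 were called, and without the agoshRNA A libraries 70 and 61 were called by edgeR. A snoRNA with reads in the syn-gRNA libraries alone could pass the filter, so these counts describe the tested members and not the lists.

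The summed level over all listed genes does not depend on the filter. C/D box snoRNAs together reached 179 to 397 CPM of the library total in agoshRNA and 638 to 1580 in syn-gRNA, with 204 to 452 in gRNA and 221 to 280 in pre-gRNA. The H/ACA and Cajal body list reached 129 to 310, 518 to 1150, 145 to 346 and 161 to 218 CPM. In both lists the syn-gRNA libraries lay above those of all 3 other setups, and the agoshRNA range overlapped those of gRNA and pre-gRNA. All snoRNA and Cajal body RNA genes took 0.0305% to 0.0696% of counts in agoshRNA libraries and 0.114% to 0.266% in syn-gRNA libraries.

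**Figure D1:**
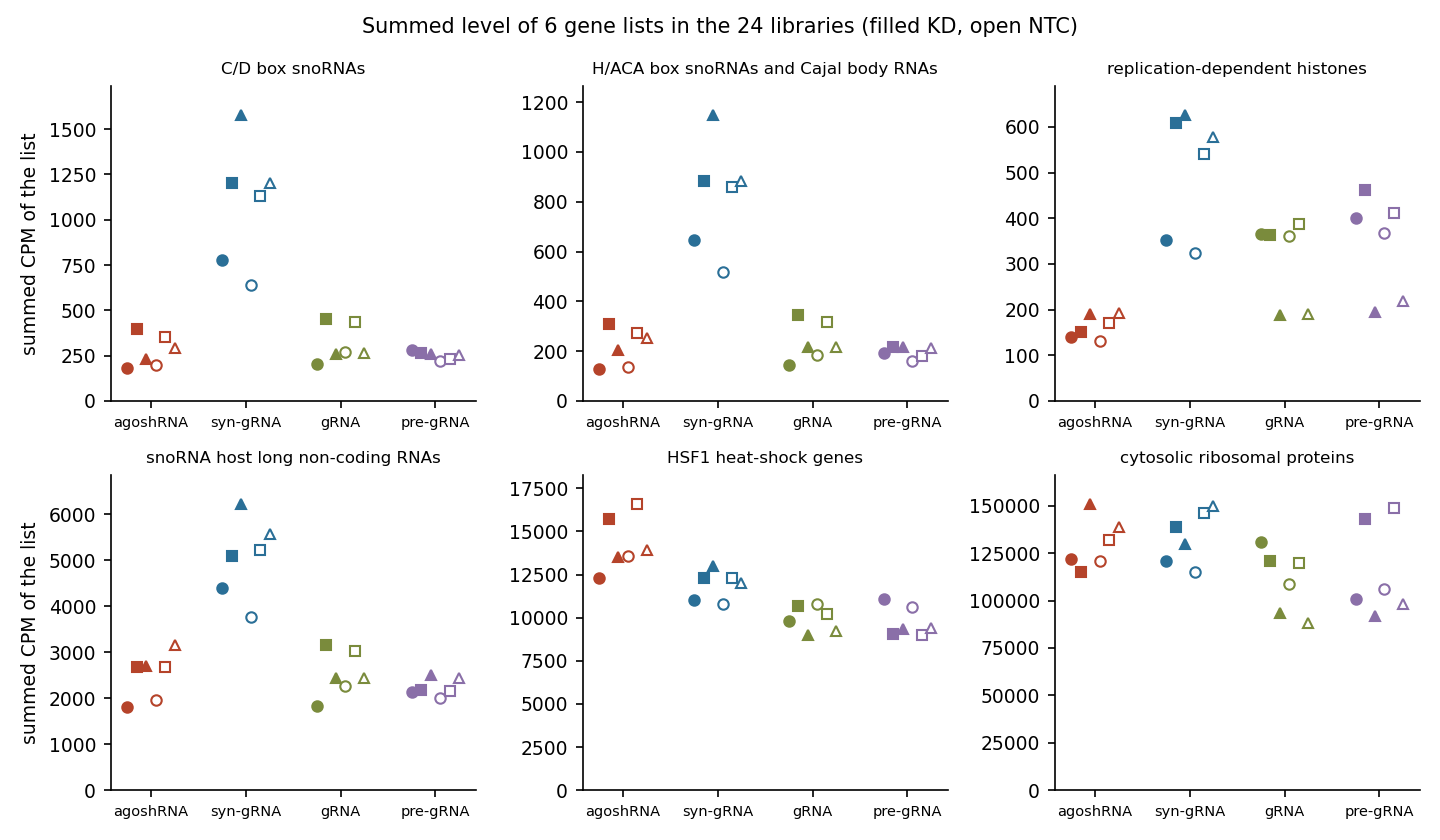
Summed CPM (of the library total) of 6 gene lists in each of the 24 libraries, by setup, filled for KD and open for NTC, with the marker giving the column letter. The syn-gRNA libraries are highest for both snoRNA lists and for their host RNAs (3770 to 6230 CPM), the agoshRNA libraries are low for histones (132 to 192 CPM) beside the C libraries of gRNA (188 and 190 CPM), and ribosomal proteins overlap. Heat-shock sums of agoshRNA (12300 to 16600 CPM) and syn-gRNA (10800 to 13000 CPM) overlap as well.

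A pair of host genes shows the pattern. RPL13A encodes a ribosomal protein and carries SNORD32A, SNORD33, SNORD34 and SNORD35A in its introns. SNORD33 (chr19:49993872-49993956, + strand, hg19) stood at 1.64, 3.87 and 4.51 CPM in agoshRNA KD and 2.59, 3.92 and 4.09 CPM in agoshRNA NTC. In syn-gRNA it stood at 14.9, 44.1 and 44.6 CPM in KD and 12.7, 35 and 36.6 CPM in NTC. The A libraries were lowest in both setups, and the setups did not overlap. The difference was −3.18 ± 0.38 (adjusted p by edgeR 0.00143, blocked p 0.0205). The 4 snoRNAs of the gene differed by −3.18 to −2.50, all with a blocked p under 0.05, while RPL13A itself differed by 0.09 ± 0.17 (adjusted p by edgeR 0.766).

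RPS12, another ribosomal protein gene, carries SNORD100, SNORD101 and SNORA33. SNORA33 (chr6:133138358-133138487, + strand, hg19) ran from 1.07 to 5.33 CPM in agoshRNA and from 11.2 to 49 CPM in syn-gRNA (−3.13 ± 0.43, blocked p 0.0322). SNORD100 differed by −3.31 ± 0.46 (blocked p 0.0269) and SNORD101 by −3.24 ± 0.45 (blocked p 0.044). RPS12 differed by −0.14 ± 0.17. HSPA8, which carries 3 tested SNORD14 copies, differed by −0.41 while those differed by −3.15 to −3.08.

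Some of these snoRNAs are printed to show the boxes that define the families and their short length. SNORD34 was searched as well, has no exact TGATGA and is not printed. Sequences are from GENCODE release 29 (GRCh38) and the box positions count from 1 at the 5′ end. Capitals mark the C box TGATGA and the D box CTGA, or in SNORA33 the ACA box at the 3′ end.
SNORD33: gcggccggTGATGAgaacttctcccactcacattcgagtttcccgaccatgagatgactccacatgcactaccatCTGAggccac
SNORD100: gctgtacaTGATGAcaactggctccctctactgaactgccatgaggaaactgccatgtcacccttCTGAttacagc
SNORA33: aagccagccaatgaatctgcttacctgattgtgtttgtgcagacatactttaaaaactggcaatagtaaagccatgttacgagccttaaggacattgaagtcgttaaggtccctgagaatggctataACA
They span 85, 76 and 130 bases at chr19:49490615-49490699, chr6:132816802-132816877 and chr6:132817219-132817348. The C box begins at base 9 in both C/D snoRNAs, and the D box at base 76 in SNORD33 and base 66 in SNORD100.

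By annotated gene type, 161 of 167 tested snoRNA and Cajal body RNA genes lay within a tested gene on the same strand, and these hosts numbered 93. Some of these snoRNAs passed the count filter only through the syn-gRNA libraries, where they were high, so the values that follow describe those tested and not the class. The snoRNA was lower than its host in 159 of the 161. The median difference was −1.93 for the snoRNAs and −0.08 for their hosts. Of the 93 hosts, 10 were held as lower and 2 as higher, where 3.63% of all tested genes held as lower and 4.1% as higher. The 80 protein-coding hosts had a median of −0.03 and the 13 hosts of other types one of −0.66. Since the libraries were not stranded and introns of a host can give reads in a snoRNA, a snoRNA count may hold both.

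**Figure D2:**
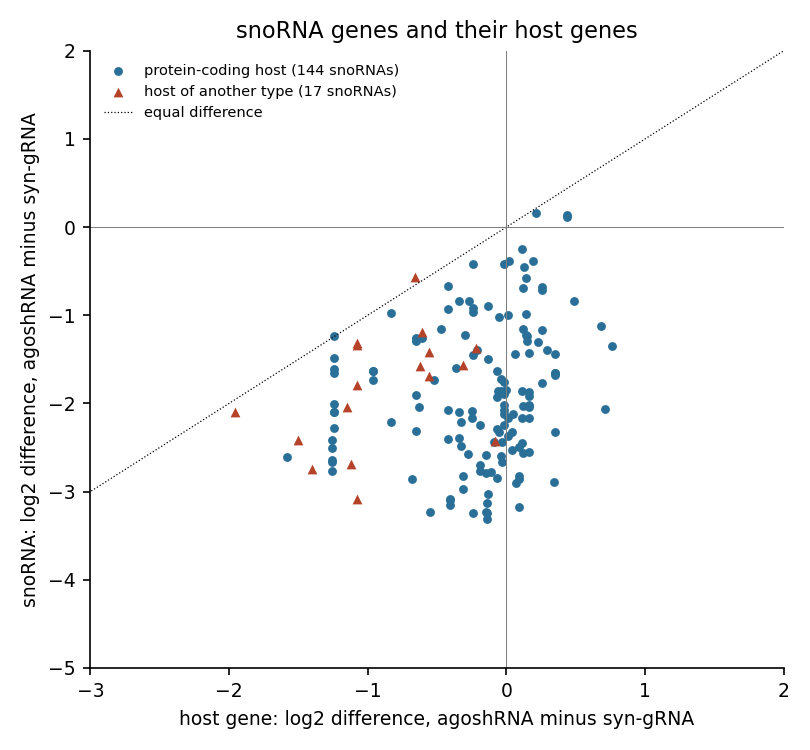
Log2 difference (agoshRNA minus syn-gRNA) of 161 snoRNA or Cajal body RNA genes (y) against that of the gene that contains each (x); the dotted line marks equal differences. All but 2 points lie under the line, with hosts from −1.96 to 0.76 and snoRNAs from −3.31 to 0.16.

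Some host RNAs that carry snoRNAs but code for no protein were lower as well. Of 19 tested members of a list of 24, 9 were lower (47.4%) and 1 was higher (median −0.56), and 2 were lower under the block. Of all tested genes, 4.78% were lower. The list also holds the protein-coding genes TMEM107 and CWF19L1, and CWF19L1 was the higher one. SNHG15 ran from 79.2 to 116 CPM in agoshRNA and from 187 to 448 CPM in syn-gRNA (−1.82 ± 0.22, adjusted p by edgeR 0.00143, blocked p 0.0205). SNHG12 differed by −1.50 ± 0.20 (blocked p 0.0269). In those 26 settings SNORD33, SNORD100, SNORA33 and SNHG15 were called each time, with SNORD33 between −3.58 and −2.76. In the sums over a letter none of them was called (adjusted p by edgeR 0.195). SNHG1 differed by −1.45 ± 0.31 (blocked p 0.0787), with agoshRNA A libraries at 281 and 338 CPM and the other agoshRNA libraries at 720 to 921 CPM. GAS5 differed by −0.87 ± 0.21 and did not hold in both arms, and ZFAS1, at −0.56 ± 0.23, was not called.

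Replication-dependent histone genes, whose main messages end in a stem-loop, were lower too. Of 87 listed genes 33 were tested, 23 were lower and none higher, 19 held, and the median was −1.56. Of all tested genes, 4.78% were lower and 3.63% held as lower. The same limit of the filter applies as for snoRNAs. Under the block 4 were called, HIST2H2BE, HIST2H2BF, HIST1H3H and HIST1H4E. The sum over all 87 was 132 to 192 CPM of the library total in agoshRNA and 325 to 627 in syn-gRNA, with 188 to 387 in gRNA and 195 to 463 in pre-gRNA.

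HIST2H2BE, an H2B gene (chr1:149856009-149858202, − strand, hg19), stood at 19.2, 20.6 and 20.8 CPM in agoshRNA KD and 16.9, 27.3 and 26.6 CPM in agoshRNA NTC. In syn-gRNA it stood at 95.4, 195 and 193 CPM in KD and 77.5, 162 and 150 CPM in NTC. The setups did not overlap, and the syn-gRNA A libraries were lowest within theirs. The difference was −2.73 ± 0.26 (adjusted p by edgeR 0.000589, blocked p 0.0115), and in the KD arm alone −2.99 (adjusted p by edgeR 0.024). HIST1H3H differed by −2.56 ± 0.39, HIST1H4E by −2.47 ± 0.37 and HIST2H2BF by −2.95 ± 0.37. Histone genes are near-identical copies, so reads may be split among them.

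Cell-cycle genes outside the histones differed less. Of 20 S-phase genes 3 were higher, MCM2, MCM3 and MCM4, which encode subunits of the replicative helicase, at 0.55 to 0.66 (median of the list 0.29). That is 15%, where 7.8% of tested protein-coding genes were higher. None of the 3 was called under the block (blocked p 0.299 to 0.395), and of the 26 settings for single genes MCM2 was called in 5, MCM3 in 9 and MCM4 in 16. Of 22 mitosis genes 3 were lower (13.6%, median −0.44), where 1.94% of tested protein-coding genes were lower, and none was called under the block. KIF20A, a kinesin of cytokinesis, ran from 54.6 to 79.9 CPM in agoshRNA and from 120 to 168 CPM in syn-gRNA (−0.99 ± 0.15, adjusted p by edgeR 0.00241, blocked p 0.12). CCNB1 differed by −0.76 ± 0.16 (blocked p 0.224) and UBE2C by −0.62 ± 0.16 (blocked p 0.278). MKI67 (−0.88 ± 0.42) and CDK1 (−0.71 ± 0.37) were not called.

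Some genes of RNA processing were lower. Of 20 SR splicing factors and CLK kinases 6 were lower and none higher (median −0.55), and 5 held, where 1.94% of tested protein-coding genes were lower. SRSF2 ran from 159 to 227 CPM in agoshRNA and from 334 to 635 CPM in syn-gRNA (−1.37 ± 0.19, adjusted p by edgeR 0.00206, blocked p 0.0491). MFSD11, which overlaps SRSF2 on the other strand, differed by −1.28 ± 0.19 (blocked p 0.0491), and unstranded reads of this pair cannot be told apart. PCF11, a factor of transcript cleavage and termination, ran from 54.9 to 149 CPM against 195 to 347 CPM (−1.53 ± 0.26, blocked p 0.0487). TRA2B, SRSF1 and SRSF6 differed by −0.93, −1.01 and −1.07 and did not pass under the block. CCNL1, a cyclin tied to splicing, was uneven among the agoshRNA libraries, at 20 and 26.2 CPM in the A libraries, 106 to 375 CPM in the other agoshRNA libraries and 440 to 815 CPM in syn-gRNA. The median of the SR and CLK list was −0.24 without the agoshRNA A libraries, with 4 called, and without the syn-gRNA A libraries 2 were called.

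Nuclear and other small RNAs gave smaller counts. Only poly(A)-selected reads were counted here too, so the levels of RNA polymerase III transcripts themselves were not measured. Of 11 tested of 20 listed RNA polymerase III transcripts, 1 (RNU6-1) was higher and 5 were lower, where RN7SK counts as 2 because 2 entries of the same values carry that name. Of all tested genes, 6.53% were higher and 4.78% lower, and under the block only RNU6-1 of this list was called. RN7SL2, an RNA of the signal recognition particle, ran from 23.1 to 88.6 CPM in agoshRNA and from 93 to 126 CPM in syn-gRNA (−1.52 ± 0.31, blocked p 0.158). RN7SL1 and RN7SL3 are near-identical to it and differed by −1.59 and −1.57. Of the 2 tested spliceosomal snRNAs made by RNA polymerase II, 1 was lower and did not hold. Of 11 tested nuclear-retained long RNAs, 1 was lower, PVT1 (−0.63 ± 0.18, blocked p 0.391), and 1 higher, MIR22HG (1.88 ± 0.53, blocked p 0.466), with a median of −0.50. MALAT1 (−1.33 ± 0.60) and NEAT1 (−0.87 ± 0.32) were not called. MALAT1 ran from 81.2 to 1580 CPM of the library total in agoshRNA and from 1280 to 2990 in syn-gRNA.

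Of the 13 mitochondrially encoded messages, all had a positive difference (median 0.51), 4 were called higher, 3 held, and none was called under the block. The called share was 30.8%, where 7.8% of tested protein-coding genes were higher. Their summed level overlapped, at 12600 to 35600 CPM of the library total in agoshRNA and 15200 to 20800 in syn-gRNA. MT-ND3, a subunit of complex I, ran from 212 to 553 CPM in agoshRNA and from 113 to 174 CPM in syn-gRNA (1.39 ± 0.25, adjusted p by edgeR 0.00595, blocked p 0.0893). MT-CYB differed by 1.26 ± 0.30 and MT-CO2 by 1.15 ± 0.22. Of 81 tested respiratory chain genes of the nucleus none was higher, 1 was lower, the pseudogene ATP5J2LP, and the median was 0.05.

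None of 80 tested cytosolic ribosomal protein genes was called (median −0.04). Of 201 tested chromosome 19 zinc-finger genes 3 were higher (1.49%) and 4 lower (1.99%), with a median of −0.12. Of tested protein-coding genes 7.8% were higher and 1.94% lower. Of 23 tested cholesterol synthesis genes 1 was higher (median 0.10). Of 17 glycolytic enzymes 2 were higher (median 0.35) and of 16 tested hypoxia-inducible genes 3 (median 0.13), where 7.8% of tested protein-coding genes were higher. None of these genes was called under the block.

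Of 17 tested genes of the Argonaute and microRNA machinery 1 was higher, DGCR8, which did not hold in both arms, and the median was 0.01. AGO2, which cuts the hairpin, differed by 0.16 ± 0.20, with 77 CPM on average in agoshRNA and 68.8 CPM in syn-gRNA. DICER1 differed by −0.45 ± 0.49. Of 19 tested targets of miR-7, the microRNA that ciRS-7 binds, 4 were higher and 1 lower (median 0.16), where 7.8% of tested protein-coding genes were higher and 1.94% lower, and none was called under the block. PSME3 (0.86 ± 0.25, blocked p 0.293) and CKAP4 (0.74 ± 0.16, blocked p 0.229) were higher and held, and the lower one was SRSF1. The summed level of all 20 went the other way, at 1520 to 1770 CPM of the library total in agoshRNA and 1780 to 1980 in syn-gRNA.

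At the targeted locus on chromosome X no transcript was called. LINC00632, the host transcript of ciRS-7, stood at 16, 72 and 101 reads in agoshRNA KD, 31, 78 and 107 in agoshRNA NTC, 90, 89 and 96 in syn-gRNA KD and 78, 114 and 132 in syn-gRNA NTC. The agoshRNA A libraries were lowest in both arms, and the difference was −0.47 ± 0.41 (adjusted p by edgeR 0.493). CDR1 (0.12 ± 0.65) and CDR1-AS (−0.06 ± 0.62) overlap on opposite strands and had at most 26 and 16 reads. A circular RNA has no poly(A) tail and is not retained by poly(A) selection, so these counts are no measure of ciRS-7 itself.

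No gene had an adjusted p under 0.05 for the setup by arm interaction by edgeR, by DESeq2 or with the block. Unadjusted p-values under 0.05 numbered 32 (0.166%) by edgeR, 23 (0.12%) by DESeq2 and 1063 (5.53%) with the block. The edgeR and DESeq2 shares lie far under the share of 0.05 that p-values give with no interaction at all. Those fits ignore the letter and could hardly detect an interaction, so their lack of calls does not show that the arms were alike. Of the 19231 tested genes, 1962 (10.2%) had no overlap between setups in the same direction in each arm, 1035 (5.38%) higher and 927 (4.82%) lower. The arms are not independent in this respect, because KD and NTC libraries of one letter deviated together, most clearly in agoshRNA.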

How the data were processed

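The authors deposited 4 tables of raw read counts per gene (60658 genes, 24 libraries). The counts were identical in the tables compared. Per the submitters' processing notes, Trim Galore, STAR 2.7.3a, featureCounts and DESeq2 were used with build hg19. The other versions are not given in the sources used here. A further 24 per-sample columns of each file, and the deposited fold-change columns, were not used.

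The counts as deposited were tested with edgeR 4.0.16 (R 4.3.3) by the quasi-likelihood test with TMM scaling, arm and setup as terms, over the genes that reached 10 counts in 3 or more libraries of the 12, with Benjamini-Hochberg adjustment and a threshold of 0.05. The method was tested on simulated data. The simulated counts had no trend with GC content and the same spread in both setups, unlike these data. Their spread between libraries was also set smaller than that of these data. That run therefore does not show how many calls here are true. Alternatives were DESeq2 1.42.0, limma-voom (limma 3.58.1) with and without the letter as a replicate block, other scaling and filters, removal of the GC trend, and leaving out libraries. Column letters are not tied to the replicate numbers of the labels, so libraries are named by letter. KD and NTC libraries of the same letter correlated at 0.26 to 0.93 in their deviations from group means, above 0.1 in all 6 pairs. Letters were therefore taken to pair the arms within a setup. Some unlike letters also passed 0.1, and in syn-gRNA the values do not set B and C apart. There KD B correlated at 0.29 with NTC B and 0.28 with NTC C, and KD C at 0.26 with NTC C and 0.17 with NTC B. For those libraries the pairing rests on the column names, and for the others on the names and the data.

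Precision is limited by 3 libraries per arm and by the depth given in the report. Genes named are, among held genes averaging 50 counts or more, the 10 protein-coding genes with the largest and the 10 with the smallest difference, the 5 of other types at each end, and up to 4 held members of each list. Others were named after their values were seen: other genes called under the block that the text names, list members given as not called or not held, the host genes with SNORD32A, SNORD34 and SNORD35A, the U6 copies, STIP1, SERPINH1, AHSA1, STC2, MCM2 and markers. The members, lists and comparisons were chosen with earlier results of these data known. Sequences come from GENCODE 29 and RefSeq, used only for the letters and not for positions in hg19.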

Additional observations from a re-analysis of the deposited data

How the results depend on the processing

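The joint count of 2175 became 3391 by DESeq2, 1181 with a mean of at least 50 counts, 768 in protein-coding genes alone and 60 against a log2 difference of 1. With the replicate block it was 57, with the block and the GC trend removed 710, with sums of same-letter libraries 1, and with the block but without both agoshRNA A libraries, 218 (this setting was added once the data had been seen). The 1488 genes held in both arms became 57, 680, 1 and 218 in those 4 fits, and 882, 633 and 60 under the mean, protein-coding and log2 settings. The KD arm (2 calls) gave 33 with upper-quartile factors, 713 by DESeq2, 30 with the block, 490 with the block and GC, 784 without the filter, 0 in protein-coding genes, 210 with all 24 libraries and 13 with the block without agoshRNA A. The NTC arm (1 call) gave 422 by DESeq2, 2 with the block, 244 with the block and GC, 469 without the filter, 2 with a mean of at least 50, 0 in protein-coding genes, 16 with all 24 libraries and 3 with the block without agoshRNA A. Leaving out libraries, singly or as a letter pair, gave 171 to 8980 joint calls, 171 to 7195 held genes, 0 to 5758 KD calls, 0 to 991 NTC calls and 0 interaction calls. Single libraries moved the joint count by over 1.5 times: it was 4109 without agoshRNA KD B, 1394 without KD C, 1127 without NTC A and 1291 without NTC C, and 1243, 869 and 723 without syn-gRNA KD A, B and C, and 819 and 795 without syn-gRNA NTC B and C. Of letter pairs, it was 1386 without agoshRNA C, 1112 without syn-gRNA A and 206 without syn-gRNA B. The causes were not tested. Over 142 single genes and 3670 values, 2964 kept their side of the threshold and direction, 674 lost the call, 32 gained it and none changed sign after being called. List medians moved by more than their spread in 15 of 728 values. Low counts limit the ciRS-7 locus.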
